A study of Rattus norvegicus with 10 samples.

Results

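*Trh*, *Tshb*, *Cga*, *Lhb* and *Ttr*, 5 genes of the thyroid axis and of the pituitary hormones, were followed in the rat hypothalamus area after 1 week of calorie restriction (CR). They were chosen by name, with earlier results of these data known. A probe set (the group of short probes that measures a transcript on the array) was taken where the platform annotation gave it a single symbol, and that symbol was one of the 5. Each gene had 1 such probe set, so 5 of the 14218 genes with such a probe set are described (31099 probe sets in all), and 1 more probe set, annotated with *Ttr* together with other genes, was left out. The animals were male Wistar rats, an outbred laboratory strain, aged 6 weeks at the start. The control rats received the full amount of the diet, and the 4 CR groups received rations reduced by 5, 10, 20 or 30% for 1 week. Every group, control included, was fasted for 16 h before sampling. RNA from 5 rats was combined into a single pool per group and hybridized to 1 array, so no group has a second array and the number of arrays limits the precision of every value. The labels name the tissue as brain, and the methods of the study narrow it to the area of the hypothalamus. Arrays of the same diets at 1 month were not used, because the rows of their columns do not follow the probe set identifiers (across probe sets the correlation of log2 signal between the durations was 0.036 to 0.052).

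The thyroid axis runs from the hypothalamus through the pituitary to the thyroid gland. Neurons of the paraventricular nucleus make thyrotropin-releasing hormone (TRH, encoded by *Trh*), which reaches the pituitary through the median eminence and drives the release of thyrotropin. Thyrotropin is a pair of subunits: a specific beta chain (*Tshb*) and the alpha chain (*Cga*), which is shared with luteinizing hormone (beta chain *Lhb*) and follicle-stimulating hormone (beta chain *Fshb*). Thyroid hormone represses *Trh*, *Tshb* and *Cga*, and fasting is known to lower *Trh* in the paraventricular nucleus. *Ttr* encodes transthyretin, the carrier of thyroxine and of the retinol-binding protein complex, and the choroid plexus is its main source in brain. The pituitary stalk is covered by the pars tuberalis, a thin layer of pituitary tissue next to the median eminence that is known to hold cells with *Tshb* and *Cga*, so a hypothalamic sample can carry pituitary tissue.

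The 250 bases before the start of *Trh*, which was lower in CR, and of *Tshb*, *Cga* and *Lhb*, which were higher, are shown so that their control regions can be compared. They are RefSeq sequences of the GRCr8 build, written 5′ to 3′ on the strand of the gene. Capitals mark matches, on either strand, to AGGTCA (a hexamer bound by thyroid hormone and other nuclear receptors), TGACG (the core of the cAMP response element), TAATCC (a bicoid-type site, as bound by PITX factors) and TATAAA (the TATA box).
Trh (chr4:126301763-126302012, minus strand): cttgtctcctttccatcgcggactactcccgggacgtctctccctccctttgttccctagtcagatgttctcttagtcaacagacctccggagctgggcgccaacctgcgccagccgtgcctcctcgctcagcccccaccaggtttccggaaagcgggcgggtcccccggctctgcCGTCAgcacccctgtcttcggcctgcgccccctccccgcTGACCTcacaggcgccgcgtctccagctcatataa
Tshb (chr2:192918055-192918304, minus strand): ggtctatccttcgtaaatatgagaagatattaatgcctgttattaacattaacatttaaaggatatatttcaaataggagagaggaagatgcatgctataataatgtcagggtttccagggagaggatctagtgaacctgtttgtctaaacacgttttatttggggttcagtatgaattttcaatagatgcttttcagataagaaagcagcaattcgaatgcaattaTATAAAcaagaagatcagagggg
Cga (chr5:54283090-54283339, plus strand): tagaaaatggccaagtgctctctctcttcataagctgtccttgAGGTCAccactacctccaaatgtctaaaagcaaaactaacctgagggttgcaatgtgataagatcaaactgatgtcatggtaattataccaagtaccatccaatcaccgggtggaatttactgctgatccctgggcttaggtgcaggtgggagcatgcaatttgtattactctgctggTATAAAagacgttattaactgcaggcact
Lhb (chr1:105037207-105037456, plus strand): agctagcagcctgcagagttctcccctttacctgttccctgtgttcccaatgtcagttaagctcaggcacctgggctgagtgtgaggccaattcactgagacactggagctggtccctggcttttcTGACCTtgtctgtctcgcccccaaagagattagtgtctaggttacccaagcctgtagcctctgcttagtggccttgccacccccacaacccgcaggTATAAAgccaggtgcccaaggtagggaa
AGGTCA was matched in *Trh* (positions -35 to -30 before the start), in *Cga* (-207 to -202) and in *Lhb* (-124 to -119), against 14.1% of all 33469 promoter windows of that length. *Tshb* and *Ttr* held no match to it in this window. TGACG was matched in *Trh* alone among the 5 genes (-74 to -70), and 18.2% of all windows held it. TATAAA stood close to the start in *Tshb*, *Cga* and *Lhb* and was not matched in *Trh* or *Ttr*, with 12.9% of all windows holding it. The *Trh* window ends in TATAA, and a match running past its edge could not be counted. TAATCC was matched in none of the 5 genes and in 6.34% of all windows. These matches are letters in a window and were not tested as sites.

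The control array of 1 week stood apart from the 4 CR arrays, and every comparison with control rests on it. Its log2 signals correlated with those of the CR arrays at 0.852 to 0.874 across probe sets, against 0.912 to 0.922 among the CR arrays. Signals under 10 were 24.02% of the control values and 11.7 to 14.4% of the CR values, and its median signal was 45.5 against 59.1 to 63.5. The 12 poly-A spike-in probe sets, bacterial transcripts added before labelling, were all higher on the control array, the median log2 difference being 1.29. The hybridization spike-ins were higher on it in 3 of 9 probe sets, with a median of -0.03. The ratio of 3′ to 5′ signal of GAPDH, a measure of RNA integrity and labelling, was 0.19 on the control array and 0.40 to 0.79 on the CR arrays (log2). The part of these differences in the results was not tested.

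**Figure D1:**
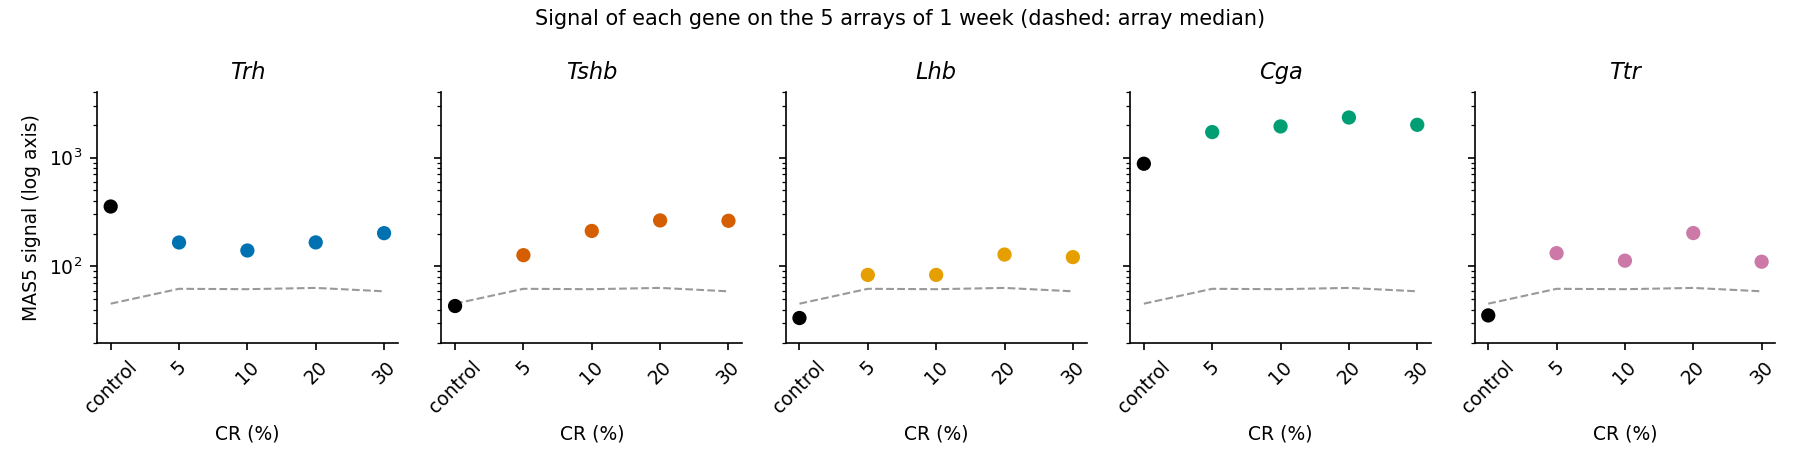
MAS5 signal (log axis) of *Trh*, *Tshb*, *Lhb*, *Cga* and *Ttr* on the control array (black) and on the arrays of 5, 10, 20 and 30% CR (coloured), 1 point per pooled array; the dashed line joins the median signals of the arrays. The control point is the highest of the 5 for *Trh* and the lowest of the 5 for the other genes.

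*Trh* was lower in CR at every level of restriction. Its signal was 355.1 in the control and 165.9, 140.1, 166.2 and 202.1 at 5, 10, 20 and 30% CR. The groups did not overlap: the highest CR array, 30%, was 0.81 below the control on the log2 scale, a gap 1.54 times the whole range of the 4 CR arrays. On average *Trh* fell by 1.09 on the log2 scale (SD 0.22, n = 4 arrays), 2.12-fold lower than control, with an adjusted p of 0.00803 by limma. Of all 15521 tested probe sets, 25.5% passed this test, 14.5% higher and 11.0% lower in CR, and all 4 CR arrays lay above the control for 37.1% and below it for 33.1%. The calls of the 5 genes are to be read against these shares. A level as low in pooled tissue can be fewer cells with *Trh* or less *Trh* RNA per cell, and these cannot be told apart here, which holds for every gene that follows.

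The subunits of thyrotropin, *Tshb* and *Cga*, were higher in CR at every level. *Tshb* had a signal of 43.3 in the control and of 126.9, 211.8, 264.6 and 262.5 at 5, 10, 20 and 30% CR. All 4 CR arrays were above the control, and the 5% array was the lowest of them. *Tshb* rose by 2.26 ± 0.50 on the log2 scale (SD, n = 4; adjusted p = 0.00251 by limma), 4.80-fold. *Cga*, the shared alpha subunit, was bright throughout, at 877.4 in the control and 1713.9, 1931.6, 2332.9 and 1998.2 in the 4 CR arrays in the same order. Its groups did not overlap either, and the gap between the control and the nearest CR array was 2.17 times the range of the CR arrays. *Cga* rose by 1.18 ± 0.18 (log2, SD, n = 4; adjusted p = 0.000811 by limma), 2.26-fold, the smallest of the 4 increases in size and the one with the least spread.

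*Lhb*, the beta chain of luteinizing hormone, was also higher in CR. Its signal was 33.6 in the control, 83.6 at both 5 and 10%, 128.6 at 20% and 121.8 at 30% CR. The 4 CR arrays lay above the control and formed a lower pair and a higher pair. The mean difference was 1.61 ± 0.34 (log2, SD, n = 4; adjusted p = 0.0114 by limma), 3.04-fold. With quantile scaling the difference was 1.10 and the call was lost (adjusted p = 0.0734), the only member for which an alternative setting ended the call.

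*Ttr* was 35.5 in the control and 132.4, 113.0, 202.6 and 110.5 at 5, 10, 20 and 30% CR. The groups did not overlap, and the 20% array was the highest. *Ttr* rose by 1.93 ± 0.41 (log2, SD, n = 4; adjusted p = 0.00448 by limma), 3.81-fold.

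The 5 genes stood on different ground with respect to signal. A probe set was tested when its mean log2 signal over the 5 arrays was above the 50th percentile, a signal of 53.3. *Trh* and *Cga* were above this value in the control as well. *Tshb*, *Lhb* and *Ttr* were below it in the control and passed only through their CR arrays, so that they had to differ upward. Among the 1625 tested probe sets with a control signal below the filter, 46.0% were called higher in CR, with a median difference of 1.15 on the log2 scale. A difference at least as large as that of *Tshb* was found in 10.9% of these, as large as that of *Ttr* in 17.8% and as large as that of *Lhb* in 28.6%. Among the 13896 probe sets with a control signal above the filter, the median difference was -0.05. There, 12.3% were called lower and 4.47% fell at least as far as *Trh*, and 10.8% were called higher and 2.71% rose at least as far as *Cga*. Without any filter, 10.0% of the 2629 probe sets with a control signal from 30 to under 50 were called higher, and *Tshb*, *Lhb* and *Ttr* were among the calls (adjusted p = 0.0039, 0.0161 and 0.00702 by limma).

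**Figure D2:**
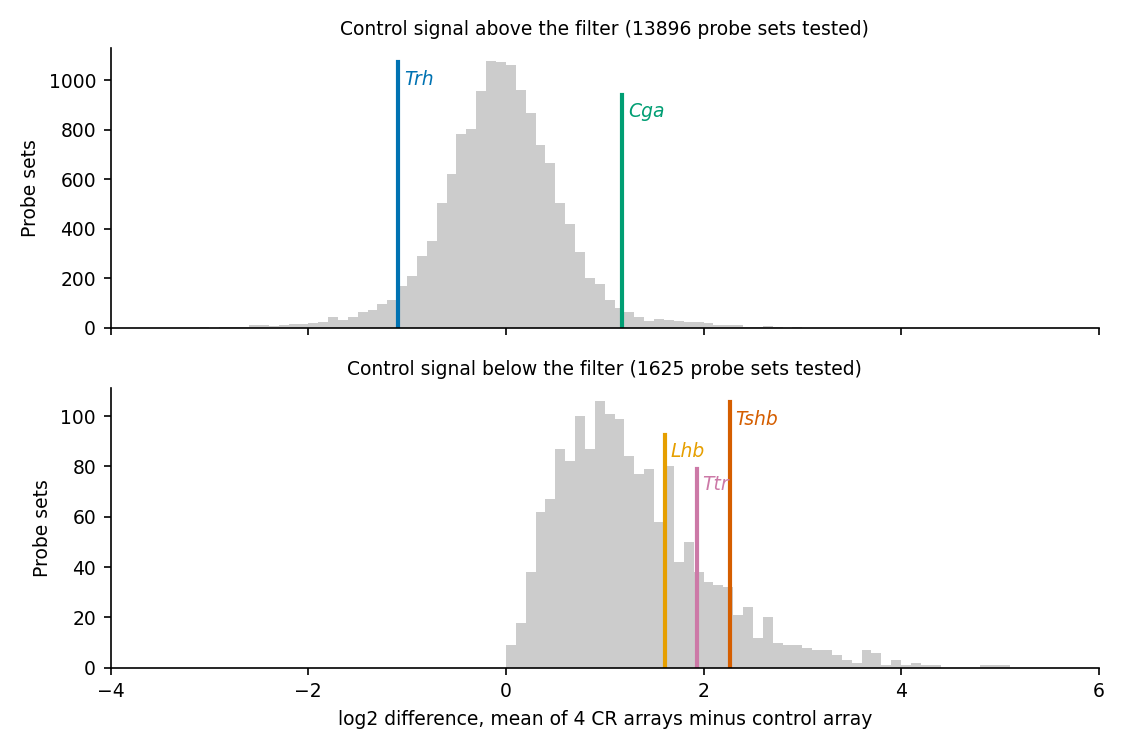
Histograms of the log2 difference, CR mean minus control, for the 13896 tested probe sets with a control signal above the filter (top) and the 1625 below it (bottom), with the 5 genes as coloured lines. The top distribution is centred near 0 and the bottom one lies above 0, as the filter requires of it, with *Tshb* furthest to the right of the 3 genes placed in it.

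Ratios to control came from the same arrays as the test above, so they describe the values and are no separate support. Each of the 5 genes was past a 1.5-fold limit in the same direction at all 4 levels of CR. The smallest of these ratios were 1.95-fold for *Cga* at 5%, and 0.57 of control for *Trh* at 30%. Of all tested probe sets, 12.4% were at least 1.5-fold above control at every level and 7.44% were as far below it. With median scaling *Cga* at 5% was 0.51 above control on the log2 scale, under the 1.5-fold limit. *Tshb*, *Lhb* and *Ttr* were past 2-fold at every level, as were 6.06% of all tested probe sets in that direction. *Lhb* lost this at 5 and 10% CR with median scaling (0.86 and 0.87, log2) and with quantile scaling (0.79 at both). *Tshb*, *Lhb* and *Ttr* passed the filter only through their CR arrays and had to differ upward. The shares past these limits among such probe sets alone were not counted.

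From low to high, *Tshb* and *Cga* ran control, 5%, 10%, 30% and 20% CR, and *Lhb* ran likewise but with no order between 5 and 10%. For *Tshb* the arrays of 30 and 20% differed by 0.01 and those of 10 and 30% by 0.31 (log2), both less than the SD of its CR arrays (0.50), while the step from 5 to 10% was 0.74. For *Cga* the steps from 5 to 10% (0.17) and from 10 to 30% (0.05) were under its SD of 0.18, and that from 30 to 20% was 0.22. For *Lhb* the arrays of 5 and 10% and those of 30 and 20% were within the SD of 0.34 of each other, with 0.54 between the pairs. *Trh* ran 10%, 5%, 20%, 30% and control from low to high, with steps of 0.24, 0.00 and 0.28 between its CR arrays against an SD of 0.22. *Ttr* ran control, 30%, 10%, 5% and 20%, with gaps of 0.03 (30 to 10%) and 0.23 (10 to 5%) under its SD of 0.41 and a gap of 0.61 from 5 to 20%.

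Without the control array, the slope of the log2 signal over the CR level asked whether the genes moved with the depth of restriction. *Tshb* had a slope of 0.37 ± 0.12 per 10% of restriction (SE; unadjusted p = 0.0141, adjusted p = 0.999 by limma), which was 0.15 without the 5% array and 0.65 without the 30% array. *Lhb* had 0.27 ± 0.14, *Trh* 0.15 ± 0.11, *Cga* 0.10 ± 0.07 and *Ttr* 0.00 ± 0.17, each with an adjusted p of 0.999 by limma. Without the 5% array the slopes of *Trh* (0.26) and *Lhb* (0.27) were above that of *Tshb*, and the slope of *Cga* was 0.02. Without the 30% array *Trh* had 0.04, *Lhb* 0.44, *Cga* 0.29 and *Ttr* 0.47, and no slope of the 5 genes passed in any of these settings. No probe set of 15521 was called by the slope, and 743 (4.79%) had an unadjusted p under 0.05. When single CR arrays were compared with the 3 others, limma made no call, with 490 to 955 at an unadjusted p under 0.05. In that comparison the 5% array was the lowest for *Tshb* (unadjusted p = 0.00218, adjusted p = 0.868). The SD of the 4 CR arrays was larger for *Tshb* than for 93.1% of tested probe sets, for *Ttr* than for 87.6% and for *Lhb* than for 80.1%. *Trh* and *Cga* were near the middle, at 54.8% and 45.3%.

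Signals of other anterior pituitary genes were read beside these. Their list was not made for the pars tuberalis, and the amount of that tissue was not tested. Of 18 anterior pituitary markers, 14 had a probe set, and apart from *Tshb*, *Lhb* and *Cga* only *Nr5a1* was bright enough to be tested, at 0.93 above control on the log2 scale (adjusted p = 0.159 by limma). *Nr5a1* had a control signal of 33.4, below the filter, so it too was tested only through its CR arrays. Of the 11 genes other than *Tshb*, *Lhb* and *Cga*, 5 were above the median signal of at least 1 array. *Gh1*, growth hormone, was 10.7 in the control and 8.0 to 50.6 in CR. *Prl*, prolactin, was 0.6 in the control and 5.1 to 29.8 in CR, and *Pomc*, the corticotropin precursor, 2.6 and 4.9 to 14.8. *Pomc* was also on the list of input to TRH neurons, so it does not mark pituitary tissue alone. *Fshb*, the partner of *Cga* in follicle-stimulating hormone, was 22.8 in the control and 74.2, 18.3, 42.2 and 68.3 at 5, 10, 20 and 30% CR, above the array median at 5 and 30%. A dimmer probe set of *Fshb* was 1.0 in the control and 12.7 to 31.9 in CR. *Gh1*, *Prl* and *Pomc* were thus below the median signal of the array on all 5 arrays. *Pou1f1*, the factor that drives growth hormone, prolactin and thyrotropin cells, was 1.9 in the control and 2.6 to 13.4 in CR. A dimmer probe set of the gene went the other way, at 5.6 in the control and 3.6 to 4.4 in CR. Of the genes left, *Pitx1* (2.6, and 11.0 to 18.9 in CR), *Lhx4* (0.5, and 3.6 to 8.0), *Ghrhr* (24.7, and 37.4 to 80.2) and *Gnrhr* (0.3, and 5.3 to 95.7) were higher on every CR array. *Tbx19* overlapped between the groups (28.1, and 17.0 to 62.9), as did a dimmer probe set of *Ghrhr* (18.8, and 15.9 to 53.2). None of the 11 genes passed a signal of 100 on any array, and 6 of them were under 10 in the control. Summed, they came to 128.2 in the control and 241.7 to 426.4 in CR, higher on all 4 CR arrays. Over all probe sets, signals under 10 were also more frequent on the control array (24.02%, against 11.7 to 14.4% on the CR arrays). Lower control signals were thus not limited to pituitary genes, though single dim probe sets went the other way. The part of pituitary tissue in the increases of *Tshb*, *Lhb* and *Cga* was not tested.

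**Figure D3:**
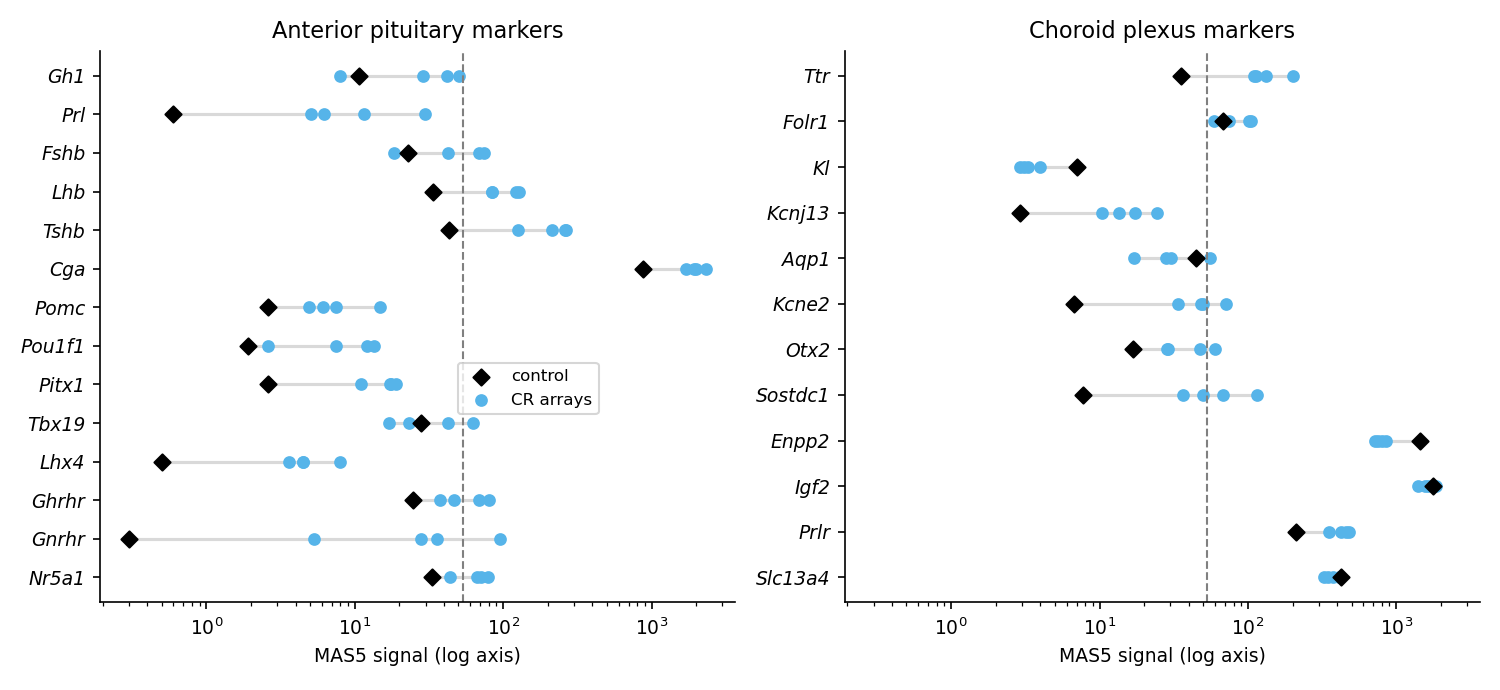
MAS5 signal (log axis) of the anterior pituitary markers (left) and choroid plexus markers (right) on the control array (black diamonds) and the 4 CR arrays (blue circles), brightest probe set per gene; the dashed line is the filter at 53.3. Of the pituitary genes, *Cga* alone lies far to the right, at 877.4 to 2332.9, and *Gh1*, *Prl* and *Pomc* stay left of the line.

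Choroid plexus, the known source of *Ttr*, was examined in the same way. Of 14 markers 12 had a probe set, 6 were tested, and *Ttr* and *Prlr* were higher and *Enpp2* lower in CR. Over all tested probe sets 14.5% were higher and 11.0% lower, and *Ttr* was tested only through its CR arrays. *Kl*, which encodes klotho, was 7.1 in the control and 2.9 to 4.0 in CR. *Kcnj13*, a potassium channel of this epithelium, was 2.9 in the control and 10.4 to 24.5 in CR. The dim markers *Kcne2* (6.7, and 33.9 to 70.8 in CR), *Sostdc1* (7.8, and 36.4 to 115.6) and *Otx2* (16.7, and 28.7 to 60.1) were likewise lower on the control array than on any CR array and were not tested. *Aqp1* (44.4, and 17.1 to 55.3 in CR), not tested, overlapped between the groups, and *Slc13a4* (422.0, and 327.4 to 408.9), tested and not passed, was lower on every CR array. Dim probe sets as a whole were also lower on the control array, as the shares of signals under 10 show. The folate receptor *Folr1* was 68.0 in the control and 59.1 to 105.2 in CR, with a log2 difference of 0.29 that did not pass (adjusted p = 0.633 by limma). *Prlr*, the prolactin receptor, rose by 1.02 ± 0.20 (SD, n = 4), and *Enpp2*, autotaxin, which oligodendrocytes also make, changed by -0.88 ± 0.10. Dimmer probe sets of *Prlr*, not tested, disagreed. One was 49.3 in the control and 43.8 to 45.9 in CR, and another 13.7 and 13.9 to 35.9. The 11 markers other than *Ttr* summed to 4002.1 in the control and 3286.9 to 3698.7 in CR, lower on every CR array, but most of that sum was *Enpp2* and *Igf2*, which are not restricted to choroid plexus. The part of choroid plexus tissue in the increase of *Ttr* was not tested.

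The tissue label was checked against hypothalamic neuron genes, of which *Avp* and *Oxt* were bright on every array. *Avp* (vasopressin) was 3721.5 in the control and 2847.2 to 3995.5 in CR, and *Oxt* (oxytocin) 3848.0 and 2163.5 to 3718.0. Neither passed, with log2 differences of -0.12 and -0.37 (adjusted p = 0.61 and 0.263 by limma). *Avp* and *Oxt* are made in the paraventricular nucleus, where *Trh* neurons lie, and in the supraoptic nucleus. Of 12 tested genes of this list, *Npy* (1.25), *Sst* (0.55) and *Resp18* (0.45) rose and none fell, beside calls in 25.5% of all tested probe sets. The calls of *Sst* and *Resp18* were lost with median scaling, at 0.12 and 0.01, and without an intensity trend, and that of *Resp18* also with quantile and cyclic loess scaling. Of 6 tested tanycyte and ependymal genes, *Rarres2* rose (0.54), and *Pltp* (-0.68) and *Vim* (-0.59) fell, each of these calls being lost without an intensity trend. *Rarres2* was also lost with median scaling (0.10, adjusted p = 0.653 by limma) and without the 10% array, and *Pltp* with quantile scaling. Of the 2 blood genes tested, none passed.

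Of 7 tested genes for TRH processing and release, 1 rose and 1 fell, a share of calls near that of all tested probe sets (25.5%). *Qpct*, glutaminyl cyclase, which forms the pyroglutamate end of TRH, was 591.8 in the control and 271.8 to 296.3 in CR, or -1.07 ± 0.06 as a log2 difference (SD, n = 4), with an adjusted p of 0.00143 by limma. *Pgpep1*, pyroglutamyl peptidase I, which removes that end, was 600.8 in the control and 1400.7 to 2553.1 in CR, a change of 1.62 ± 0.36 (adjusted p = 0.00173). Both calls held in all 13 alternative settings. The name of the *Pgpep1* probe set marks it as one whose probes can also match other transcripts, and this was not tested. *Pcsk2*, a convertase of the TRH precursor, was 155.8 in the control and 75.1 to 123.0 in CR, and its difference of -0.76 did not pass (adjusted p = 0.112). *Pcsk1*, the other convertase, was not analysed here. *Pam*, which amidates TRH, had a difference of -0.38 (adjusted p = 0.0502), and *Trhde*, the TRH-degrading ectoenzyme, was too dim to be tested.

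**Figure D4:**
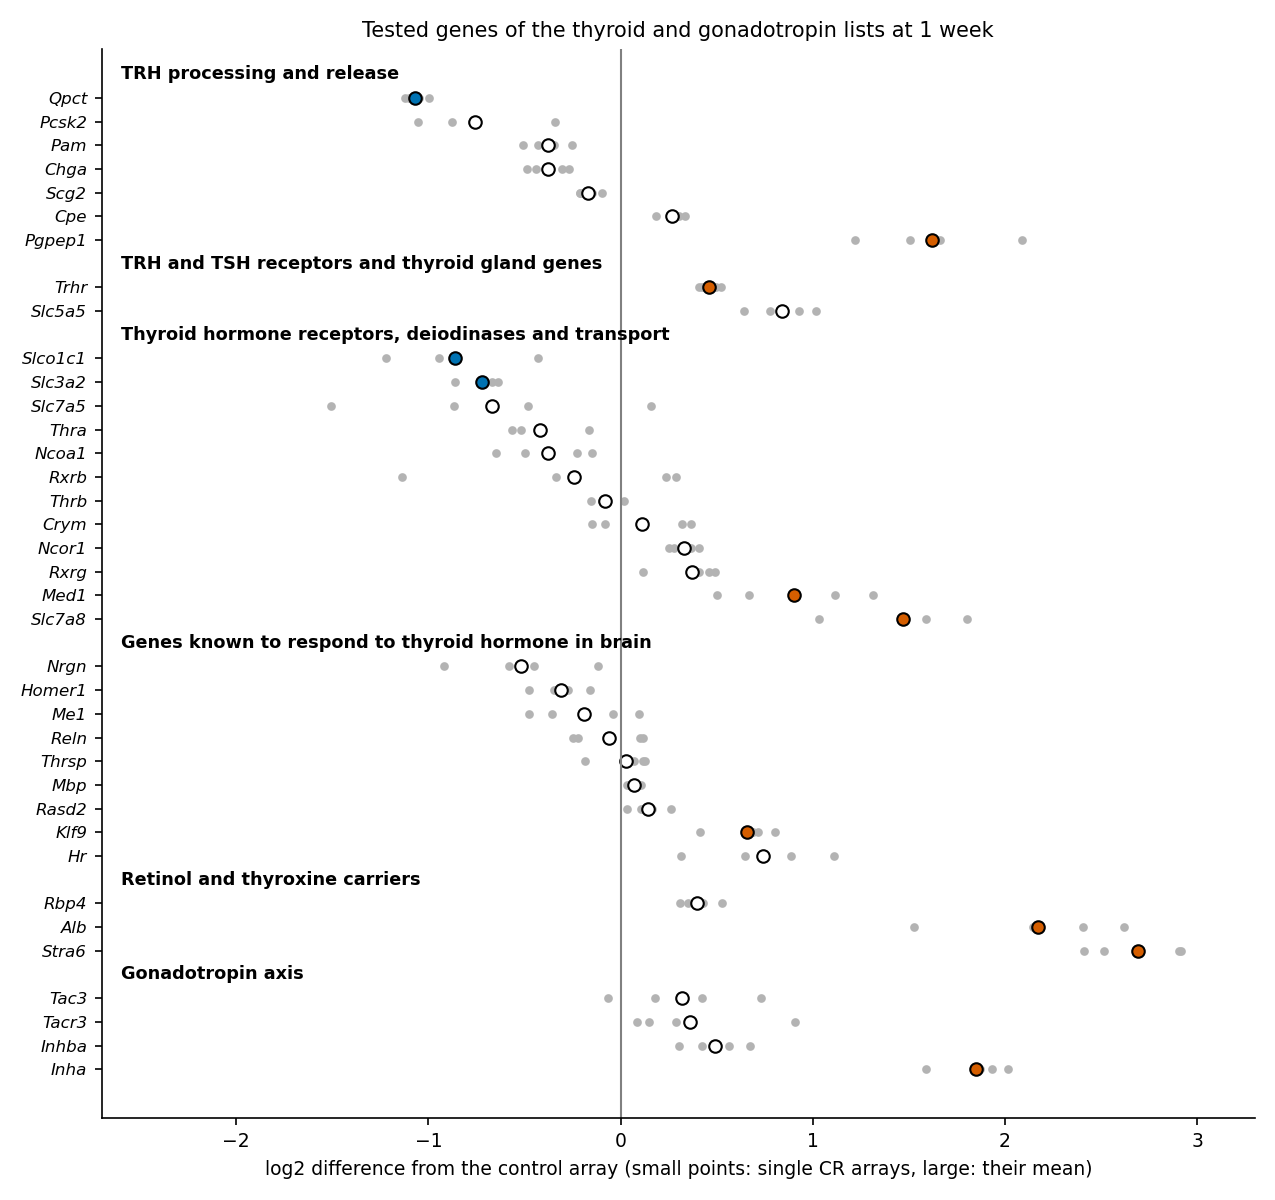
Log2 difference from the control array for the tested genes of 6 lists (brightest probe set per gene); small grey points are the 4 CR arrays, large points their mean, filled orange (higher) or blue (lower) for genes past the limma test (adjusted p under 0.05), open for the rest. *Stra6* (2.69) and *Alb* (2.17) lie furthest to the right and *Qpct* (-1.07) furthest to the left among the means.

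Among the receptors of the axis, *Trhr*, the TRH receptor, was 278.9 in the control and 370.2 to 400.0 in CR, a rise of 0.46 ± 0.05 (adjusted p = 0.0492 by limma) that passed in 3 of 13 alternative settings and was 0.02 with median scaling. *Tshr*, the thyrotropin receptor, was too dim to be tested. Of 12 tested genes for thyroid hormone receptors, deiodinases and transport, 2 rose and 2 fell, which is near the 25.5% of all tested probe sets, with a median difference of -0.16 against 0.03 over all tested probe sets. *Slc7a8*, an amino acid and thyroid hormone transporter, rose by 1.47 ± 0.33 from a control signal of 45.9, below the filter, so that it too was tested only through its CR arrays. Its partner chain *Slc3a2* changed by -0.72 ± 0.10, and *Slco1c1*, the thyroxine transporter of brain vessels, by -0.86 ± 0.33. *Med1*, a coactivator of nuclear receptors, rose by 0.90 ± 0.38, while another of its tested probe sets was at -0.06. The calls of *Med1* and *Slco1c1* were lost in 6 and 5 of 13 alternatives, and that of *Slc7a8* with quantile scaling (adjusted p = 0.0516). The receptor *Thrb* had -0.08 (adjusted p = 0.776) and *Thra* -0.42 (adjusted p = 0.103), while another probe set of *Thra* was called lower (-0.86, adjusted p = 0.0464 by limma). *Dio2*, the deiodinase that makes active hormone in tanycytes and astrocytes, was 1.6 in the control and 58.1, 22.9, 13.7 and 7.0 at 5, 10, 20 and 30% CR, too dim to be tested.

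Of 9 tested genes that thyroid hormone is known to regulate in brain, 1 rose and none fell, with a median of 0.03, where 14.5% of all tested probe sets were higher and 11.0% lower. *Klf9*, a transcription factor that glucocorticoids also induce, rose by 0.66 ± 0.17 (adjusted p = 0.0118 by limma), and this call was lost with median scaling, at 0.22, and without an intensity trend. *Hr*, the corepressor hairless, was 0.74 above control and did not pass (adjusted p = 0.106). Other probe sets of *Me1* (-1.14) and *Mbp* (-2.32) passed while the brightest ones did not (-0.19 and 0.07), so the probe sets of these 2 genes disagreed.

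Among carriers that work beside transthyretin, *Stra6*, the receptor for retinol-binding protein, was 38.4 in the control and 204.1 to 289.6 in CR, a rise of 2.69 ± 0.26 (adjusted p = 0.000265 by limma). A second probe set of the gene rose by 2.76, and another tested one was at 0.97 and did not pass (adjusted p = 0.315). *Alb*, albumin, rose by 2.17 ± 0.47 from a control signal of 17.9, and its call was lost with quantile scaling (adjusted p = 0.074 by limma). A dimmer probe set of *Alb*, not tested, overlapped between the groups, at 21.6 in the control and 21.0 to 54.5 in CR. *Rbp4*, retinol-binding protein itself, was 0.40 above control and did not pass (adjusted p = 0.0658). Like *Ttr*, *Stra6* and *Alb* passed the filter only through CR.

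For *Lhb*, the remaining genes of the gonadotropin axis gave few tested values. Of 13 genes with a probe set 4 were tested, and *Inha*, the inhibin alpha subunit, rose by 1.85 ± 0.18 (adjusted p = 0.00102 by limma) from a control signal of 47.5. This is below the filter, so *Inha* was tested only through its CR arrays, as was *Inhba*, and had to differ upward. *Tac3* (0.32), *Tacr3* (0.36) and *Inhba* (0.49) did not pass. *Gnrh1*, the releasing hormone, was 38.5 in the control and 21.4 to 92.2 in CR and was not tested. Of 6 tested genes for input to TRH neurons, *Cartpt* rose by 0.64 ± 0.09 (adjusted p = 0.00292 by limma), or 0.20 and no longer past the test with median scaling, and none fell. For this list and the gonadotropin axis alike, the shares over all tested probe sets were 14.5% higher and 11.0% lower. The leptin receptor *Lepr* and the melanocortin receptor *Mc4r* were too dim to be tested.

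The genes most like each member were found among 9420 tested genes by the root mean square difference of the 4 log2 ratios to control. For *Cga* they were *Polr2k* (0.031), *Misp3* (0.044) and *Foxp2* (0.049). For *Trh* they were *Necap2* (0.062), *Slc25a17* (0.069) and *Bccip* (0.073). For *Lhb* the values were larger, 0.160 for *Rbm20*, 0.165 for *Cbx1* and 0.167 for *Sdcbp2*. For *Ttr* they were *Sh3rf1* (0.098), *Tnmd* (0.220) and *Dhx36* (0.225), and for *Tshb*, *Chst5* (0.181), *Cox6c-ps1* (0.235) and *Hdac7* (0.252). All of these ratios share the single control array.

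**Figure D5:**
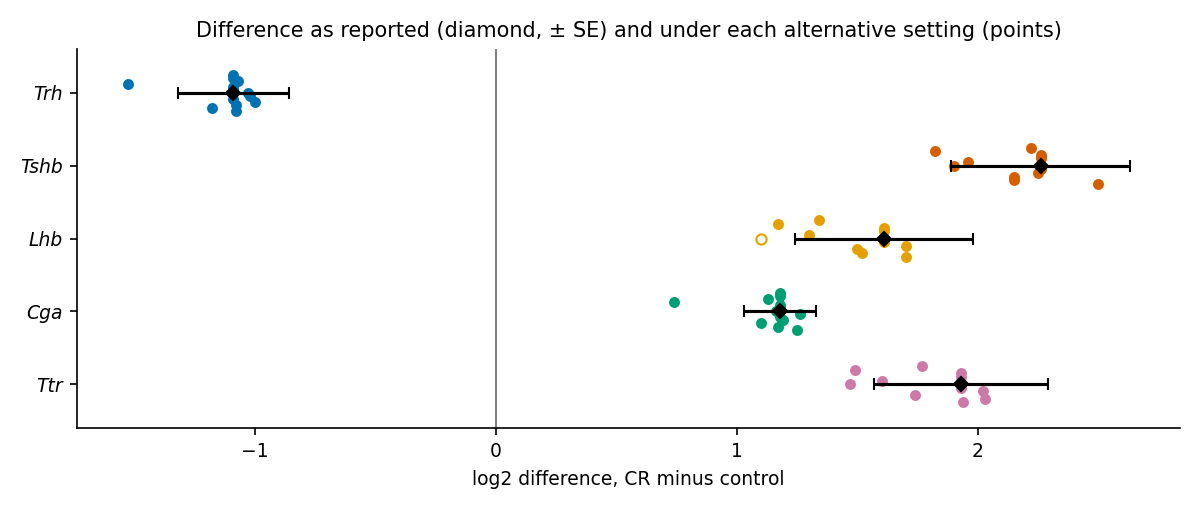
Log2 difference between CR and control for each gene as reported (black diamond, bars ± SE by limma) and under each alternative setting (points, filled where the adjusted p was under 0.05 and open otherwise). No point crosses 0, and the only open point is *Lhb* with quantile scaling, at 1.10.

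Across the alternatives the direction of the 5 differences did not change. *Trh* ranged from -1.53 to -1.0, *Tshb* from 1.82 to 2.50, *Cga* from 0.74 to 1.26, *Lhb* from 1.10 to 1.70 and *Ttr* from 1.47 to 2.03. The values furthest from the main ones for *Trh* and *Cga* came from median scaling, which moved the median of all tested probe sets by -0.44. Relative to that median, *Cga* remained higher and *Trh* lower. As each group is 1 pool, the error behind the p-values is the spread over the CR levels, the test took the single control array to have the spread of the CR arrays, and diet and control array cannot be told apart.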

How the data were processed

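The authors deposited linear intensity values from MAS5, with a column for each array. MAS5, named in the submitters' processing notes, subtracts mismatch probe signal and scales each array, so low signals are noisy on a log scale. Its version is not given in the sources used here, and detection calls were not used, so dim cannot be told from absent. Tests used log2 signals with no pseudocount, and values of 0 were set to 0.1. Names came from the platform annotation. limma 3.58.1 in R 4.3.3 (lmFit, eBayes with an intensity trend, Benjamini-Hochberg over all tested probe sets, threshold 0.05) compared the 4 CR arrays with the control (3 residual degrees of freedom), and fitted the slope over CR level on the 4 CR arrays (2 residual degrees of freedom). Only probe sets in the upper part of the mean log2 signal (above its 50th percentile) were tested, 57 control probe sets left out. The fits were tested on simulated data, where the comparison with control left most changes of 1.5, 2 and 4-fold uncalled. There, far fewer probe sets were changed than were called in the data, and the control was drawn like the CR arrays. The share recovered therefore does not carry over to these arrays. A gene that did not pass can still differ. Python 3.11.15 did the rest. The brightest probe set stood for a gene. Of each list, defining markers and up to 3 passing genes per direction were named, largest change first, and 3 genes per member by likeness. Other genes (among them *Thra*, *Hr*, *Pam*, *Rbp4*, *Me1*, *Mbp*, *Pou1f1*, *Lepr*, *Mc4r*) were named after their values were seen. Members and lists were chosen with earlier results of these data known. Alternatives were other scalings, filters, a pseudocount of 13.7 (the 20th percentile), other variance models and leaving out each CR array. The comparison of each CR array with the other 3 was added after the data were seen. Promoter windows came from RefSeq (GRCr8), and where *Lhb* had 2 windows the one at the start of its gene record was used.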

Additional observations from a re-analysis of the deposited data

How the results depend on the processing

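The differences of *Trh*, *Tshb*, *Cga* and *Ttr* kept their direction and their side of the threshold under all their alternatives (13, 11, 13 and 11), and *Lhb* under 10 of 11, the exception being quantile scaling (1.10, adjusted p = 0.0734 by limma). The filter at the 75th percentile and the filter on the control array alone kept only *Trh* and *Cga*. Leaving out each CR array gave -1.18 to -1.0 for *Trh*, 2.15 to 2.50 for *Tshb*, 1.5 to 1.70 for *Lhb*, 1.10 to 1.25 for *Cga* and 1.74 to 2.03 for *Ttr*, and 1958 to 2260 probe sets higher and 1497 to 1824 lower. In the main setting 2246 probe sets were higher and 1712 lower (56.7% of calls higher). Median scaling gave 1017 higher and 5057 lower (16.7% higher), no filter 4943 higher (73.9%), the filter at the 75th percentile 1295 higher (48.6%), the filter on the control array 1461 higher (47.4%), and no intensity trend 1006 lower. At all 4 levels and 1.5-fold, 1931 probe sets were higher and 1154 lower; a 2-fold limit gave 940 and 402, median scaling 907 and 3669, no filter 8279 and 1867, and the 75th percentile filter 654 and 623. The slope over CR level, with no call in the main setting, gave 3 to 30 calls when a CR array was left out, with 1 residual degree of freedom. The slope of *Trh* was -0.15 with the control as 0%, and that of *Ttr* went from -0.08 to 0.47 as each CR array was left out (-0.02, -0.06 and -0.08 without 5, 10 and 20%), none past the threshold. The cause was not tested. No paired analysis was possible because each group has 1 array and the labels give no replicate numbers.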
